A study of Mus musculus with 10 samples.

Results

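Accessible chromatin was examined around 10 genes for enzymes that cut the extracellular matrix and for the inhibitors that hold them in check. They were the matrix metalloproteinase genes *Mmp2*, *Mmp9*, *Mmp11*, *Mmp14*, *Mmp15* and *Mmp16*, the tissue inhibitor genes *Timp2* and *Timp3*, and the ADAMTS protease genes *Adamts1* and *Adamts5*. The genes were chosen by name, with earlier results of these data known, so the set was not picked blind to the data. A region was taken as theirs when its summit lay inside the gene or within 25 kb of it on mm10. This gave 154 of the 184764 regions of the series, a region being a window of 501 bp centered on a called ATAC-seq summit. A filter that asked for a summit in at least 2 libraries kept 137 of the 154, and the 17 regions it removed were not tested. Regions called in 1 group alone passed this filter through that group, so they had to differ, and the counts of called regions include them.

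Assay for transposase-accessible chromatin (ATAC-seq) was performed on cells sorted from pooled mouse hearts, and 10 samples gave 9 peak lists. Epicardial cells, the outer lining of the heart, were sorted as CD31-tdTomato+PDPN+ at E11.5 (3 libraries, 6 hearts each) and at E17.5 (3 libraries, 4 hearts each). Epicardium-derived cells (EPDC), which leave the lining through epithelial-to-mesenchymal transition, were sorted as CD31-tdTomato+PDPN- at E12.5 (1 library) and at E13.5 (2 libraries, the second of which pooled a pair of technical replicates into 1 list). The labels give every sample as C57BL/6J with the genotype Rosa26tdTomato;Wt1CreERT2/+, and tamoxifen had been given at E9.5 in all groups. The study's methods name dams of either reporter or wild-type genotype and a pair of reporter alleles, without saying which gave each library. Only cells in which the *Wt1* driver had been active, and their descendants, were labelled. Each EPDC library differed from the epicardial libraries in age as well as in sort.

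The lists held 94909 to 142743 summits on chromosomes 1 to 19, X and Y, and the typical fragment background ranged from 2.07 fragments in E17.5 replicate 1 to 10.9 in EPDC E13.5 sample 2. The EPDC lists also held 252 to 268 summits outside those chromosomes, where the epicardial lists had 0, and their largest -log10 p ran from 20590 to 70107 against at most 891. Cell type and this difference between lists cannot be told apart. Of 8 epicardial marker promoters, 7 had a summit in all 9 libraries. The *Upk3b* promoter stood at percentiles 97 to 99 in epicardium and at 74, 23 and 46 in EPDC, and 4 of the 8 were lower in EPDC without overlap. Between stages, *Msln* (no summit at E11.5 or in EPDC, 77 to 89 at E17.5) and *Aldh1a2* were higher at E17.5 without overlap, and *Wt1*, *Upk3b*, *Upk1b* and *Pdpn* were lower. Of 8 mesenchymal promoters, *Postn*, *Pdgfra* and *Col3a1* were higher at E17.5 without overlap and *Dcn* was lower, and in EPDC *Postn* and *Cspg4* were higher and *Dcn* lower, with median differences of 0.044 and -0.71 points. Their summed percentile was 560 to 587 at E11.5, 621 to 634 at E17.5 and 636 to 678 in EPDC. None of 6 blood promoters had a summit. Of 6 endothelial promoters, *Cdh5*, *Tie1* and *Emcn* had no summit, *Kdr* stood at 88 to 93 in all 9 libraries and was higher in EPDC without overlap, *Tek* stood at 79 to 86, and *Pecam1* had a summit only in the E13.5 EPDC libraries, at 26 and 37. Of 6 cardiomyocyte promoters, 4 had a summit in all 9 libraries, with a summed percentile of 331 to 352 at E11.5, 279 to 333 at E17.5 and 280 to 323 in EPDC. These sums hold members that moved in opposite directions, since *Tnnt2*, *Actn2* and *Ryr2* were lower at E17.5 without overlap while *Myl7* stood at 33 to 37 at E11.5 and at 57 to 74 at E17.5 and had no summit in EPDC, and *Myh6* had none in any library. The part of other cell types in the results was not tested.

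Matrix metalloproteinases are zinc enzymes made as inactive precursors. The gelatinases MMP2 and MMP9 are secreted, whereas MMP14, MMP15 and MMP16 sit in the cell membrane, and MMP14 activates the MMP2 precursor on the cell surface together with TIMP2. TIMP proteins bind the active site of the enzymes, TIMP3 is held in the matrix and also blocks ADAMTS enzymes, and ADAMTS1 and ADAMTS5 cut proteoglycans such as versican and aggrecan. In the developing heart these enzymes are studied for the invasion of the muscle wall by epicardial cells and for turnover of the matrix.

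On mm10 the secreted enzyme genes were *Mmp2* (chr8:92827291-92853420, plus strand, 12 regions), *Mmp9* (chr2:164940780-164955850, plus strand, 12 regions) and *Mmp11* (chr10:75923222-75936496, minus strand, 11 regions). The membrane enzyme genes were *Mmp14* (chr14:54431612-54445364, plus strand, 18 regions), *Mmp15* (chr8:95352268-95375080, plus strand, 20 regions) and *Mmp16* (chr4:17852893-18119145, plus strand, 6 regions). The inhibitor genes were *Timp2* (chr11:118301069-118355740, minus strand, 25 regions) and *Timp3* (chr10:86300372-86349506, plus strand, 26 regions), the latter lying within *Syn3*. The ADAMTS genes *Adamts1* and *Adamts5* are neighbors on the minus strand, at chr16:85793827-85803113 with 13 regions and at chr16:85856173-85901828 with 11 regions.

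The sequences of 7 regions carry the differences described here and are given as 201 bases around the summit, plus strand of GRCm38.p6 (mm10). They are the first region in each direction of each comparison and the promoter region with the highest mean. A further pair, in *Mmp14* and *Mmp2*, was chosen after the values were seen. The promoter region lay 2.15 kb inside *Adamts1*, within 1 kb of a transcript start other than the gene start. Capitals mark matches to a motif searched on both strands. The AP-1 motif was searched as TGANTCA, the TEAD motif as GGAATG, and the GATA motif as AGATAA. The SP/KLF motif was searched as GGGCGG, the T-box motif as AGGTGT, and the RUNX motif as TGTGGT. The C/EBP motif was searched as TTGCNNAA and the NFI motif as TTGGCA, and the CTCF core was added after the data were seen.
Timp2 upstream region, chr11:118361148-118361348, higher at E17.5: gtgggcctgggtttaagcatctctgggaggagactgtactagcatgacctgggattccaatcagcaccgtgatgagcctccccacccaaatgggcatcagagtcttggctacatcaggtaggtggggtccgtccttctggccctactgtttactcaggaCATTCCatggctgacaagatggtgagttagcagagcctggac
Mmp14 intron, chr14:54434214-54434414, higher at E17.5: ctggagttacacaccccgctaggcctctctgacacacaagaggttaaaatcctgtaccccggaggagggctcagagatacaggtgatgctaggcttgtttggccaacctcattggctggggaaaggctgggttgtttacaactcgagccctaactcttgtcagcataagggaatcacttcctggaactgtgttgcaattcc
Mmp2 intron, chr8:92850384-92850584, higher at E17.5 and in EPDC: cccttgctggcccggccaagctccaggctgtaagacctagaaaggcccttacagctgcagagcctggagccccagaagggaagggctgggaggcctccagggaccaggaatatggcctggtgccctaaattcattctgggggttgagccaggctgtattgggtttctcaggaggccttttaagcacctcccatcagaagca
Adamts1 upstream region, chr16:85822482-85822682, lower at E17.5: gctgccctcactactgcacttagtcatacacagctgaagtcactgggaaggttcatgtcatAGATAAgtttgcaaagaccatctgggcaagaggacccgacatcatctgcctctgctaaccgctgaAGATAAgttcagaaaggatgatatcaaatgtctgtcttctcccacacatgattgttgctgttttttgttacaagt
Region past Timp3, chr10:86368926-86369126, higher in EPDC: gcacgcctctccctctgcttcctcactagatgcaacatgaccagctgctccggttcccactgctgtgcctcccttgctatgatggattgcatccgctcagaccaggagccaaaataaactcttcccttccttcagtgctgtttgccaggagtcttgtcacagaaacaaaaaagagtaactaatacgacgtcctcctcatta
Region past Mmp2, chr8:92869323-92869523, lower in EPDC: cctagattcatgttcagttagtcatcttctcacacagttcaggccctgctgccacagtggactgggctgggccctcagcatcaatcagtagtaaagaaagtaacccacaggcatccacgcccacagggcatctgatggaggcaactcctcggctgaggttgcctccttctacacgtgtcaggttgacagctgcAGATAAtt
Adamts1 promoter region, chr16:85800863-85801063, highest mean of the promoter regions: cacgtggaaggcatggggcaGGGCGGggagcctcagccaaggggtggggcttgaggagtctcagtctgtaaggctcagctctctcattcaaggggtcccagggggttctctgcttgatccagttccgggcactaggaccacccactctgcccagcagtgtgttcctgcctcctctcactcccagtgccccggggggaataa
The *Adamts1* upstream region held the GATA motif at 2 places in these 201 bases, and the *Timp2* upstream region held the TEAD motif. The *Mmp14*, *Mmp2* intron and *Timp3* sequences held none of the 9 motifs within these bases.

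Each library's summits were ranked by -log10 p and written as a percentile, so that 100 is the strongest summit of that library and 0 means that no summit was called in the region. A value of 0 is a summit that was not called, not an absence of fragments. A summit more than 250 bp from a window's center was not counted there. The -log10 p was scored against a local background, so a summit with more fragments can rank below one with fewer. The percentile is a rank within a library, so a region can move in rank because others moved.

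The protease and inhibitor loci held regions that rose and regions that fell between E11.5 and E17.5. Of the 137 regions, 23 were higher at E17.5, 26 were lower and 88 did not pass (limma, adjusted p under 0.05). Over all 154147 regions tested, 9.17% were higher and 25.1% were lower, against 16.8% and 18.98% of the regions around these genes. The number that were lower rested on single libraries, since it was 15 (with 23 higher) without E11.5 replicate 3 and 16 (with 26 higher) without E17.5 replicate 1. The median difference was -0.24 percentile points here and -3.99 over all regions. This split depended on the scaling. Of the called regions, 46.9% were higher as ranked, 68.0% when only equal numbers of top summits were used (34 higher and 16 lower) and 65.0% with scores scaled to the library total (39 higher and 21 lower), while over all regions the share was 26.7%, 45.7% and 36.5%.

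By gene, the higher regions lay mostly at the inhibitors and at *Mmp14*, which also held many of the regions tested. *Timp2* had 6 higher and 4 lower of 22 tested, *Timp3* 6 and 3 of 23, and *Mmp14* 4 and 1 of 17. *Mmp11* had 2 higher and 0 lower of 11. *Adamts5* had 1 higher and 4 lower of 10, *Adamts1* 1 and 3 of 11, and *Mmp15* 2 and 4 of 18. *Mmp2* had 1 and 2 of 11, *Mmp9* 0 and 3 of 10, and *Mmp16* 0 and 2 of 4. Regions with a summit in every E17.5 library and in no E11.5 library numbered 13, which is 8.44% of the 154 against 4.39% over all regions. The converse, present in every E11.5 library and in no E17.5 library, held for 8 regions or 5.19%, against 10.4% over all regions.

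**Figure D1:**
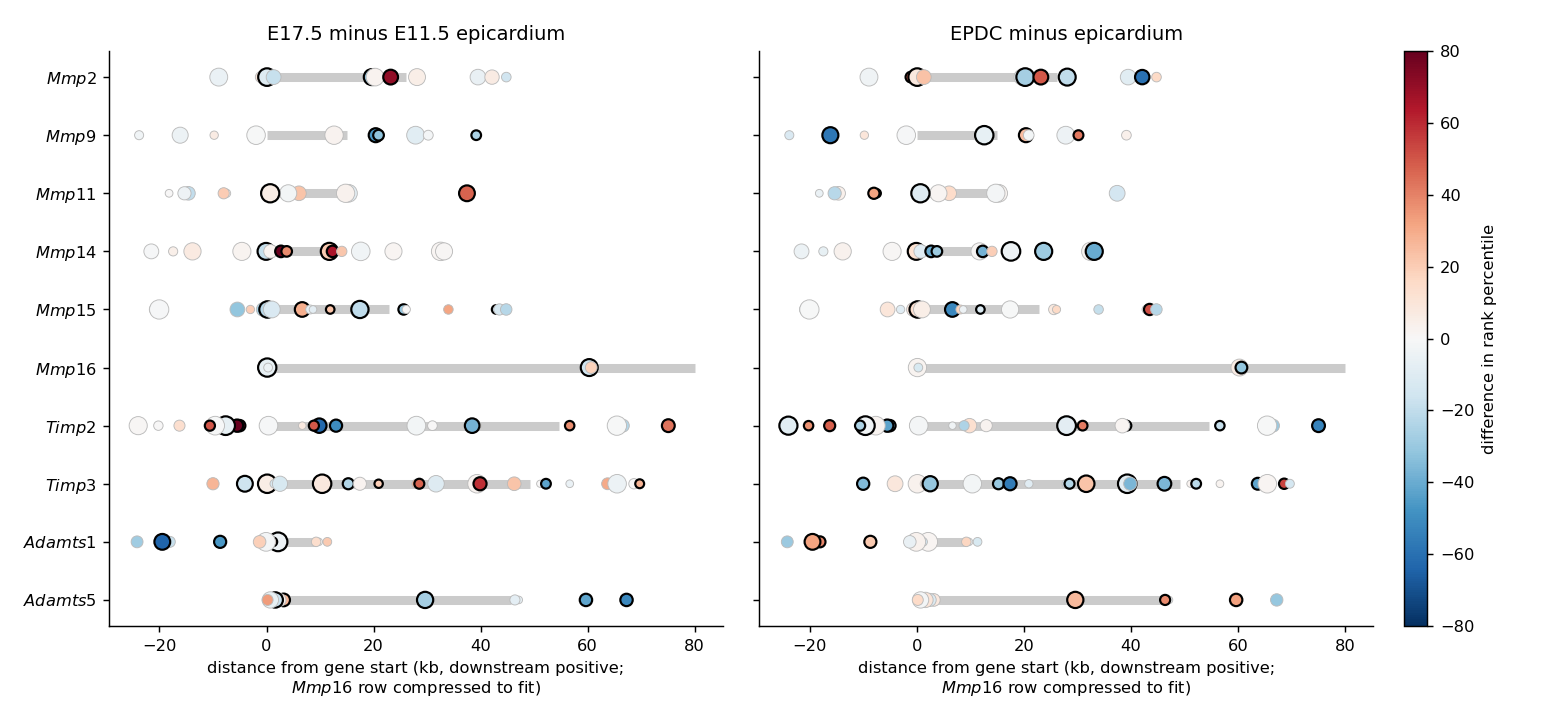
Regions around each gene by distance from the gene start (kb), colored by the difference in rank percentile between E17.5 and E11.5 epicardium (left) and between EPDC and epicardium (right). Gray bars are genes, point area grows with the mean percentile over the 9 libraries, black outlines mark limma calls, and the *Mmp16* row is compressed. The 23 red and 26 blue outlined points at left are the called regions, with deep red points at *Timp2*, *Mmp14* and *Mmp2*.

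The difference of greatest size was upstream of *Timp2*, the inhibitor that takes part in MMP2 activation. Its region 5.51 kb before the gene start stood at percentiles 8.4, 0.002 and 0 in the E11.5 libraries and at 89.5, 88.5 and 88.5 in the E17.5 libraries. EPDC had 0, 0 and 8.8, so E17.5 epicardium stood apart from both other groups by rank. The rise from E11.5 was 86.0 ± 5.4 points (SE, limma adjusted p = 2.4e-05). The fragment counts at the called summits were 62 and 54 in E11.5 replicates 1 and 2 and 228, 371 and 342 at E17.5. EPDC E13.5 sample 2 had 127, so fragments were present at E11.5 and in EPDC too. An adjacent window 5.01 kb upstream moved with the 5.51 kb region, from 4.7, 0 and 0 to 58.0, 76.8 and 79.8. A further window, 10.6 kb upstream, had no summit at E11.5 or in EPDC and stood at 40.1 to 55.9 at E17.5.

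*Mmp14*, the membrane enzyme that activates MMP2, also had regions that were high at E17.5 and low in both other groups, inside its gene body. An intronic region 2.70 kb from its start had no summit in any E11.5 or EPDC library and stood at 72.9, 84.3 and 80.6 at E17.5 (mean difference 79.3). It passed the filter only through the group in which it was high, so its test is not given. An exonic region 12.3 kb from the start went from 0, 8.0 and 8.3 to 63.7, 76.5 and 72.0, and had no summit in EPDC. The neighboring window 11.7 kb from the start had a summit in all 9 libraries. It stood at 61.0 to 69.4 at E11.5 and 82.6 to 87.5 at E17.5. EPDC had 67.8, 75.3 and 83.55 in that window and overlapped E17.5. The intronic and exonic regions lay apart from the strongest *Mmp14* promoter region, which moved the other way. That promoter region stood at 77.9, 80.3 and 76.8 at E11.5 and at 49.2, 63.9 and 65.3 at E17.5, lower by 18.9 ± 4.6 (limma adjusted p = 0.012). Another promoter region, 0.76 kb inside the gene, overlapped between stages. It stood at 36.6, 53.4 and 43.9 at E11.5 and at 39.4, 56.2 and 45.5 at E17.5.

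An intronic region 23.2 kb into *Mmp2*, which encodes a gelatinase, had no summit in the 3 E11.5 libraries. It stood at 74.4, 65.1 and 73.3 at E17.5 and at 75.3, 90.0 and 90.3 in EPDC. Any called value lies above 0, so the lack of overlap with E11.5 follows from the calls. The rise between stages was 71.0 ± 5.7 points (SE, limma adjusted p = 4.3e-05). Through its EPDC summits alone, the region would have passed the filter without its E17.5 values.

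**Figure D2:**
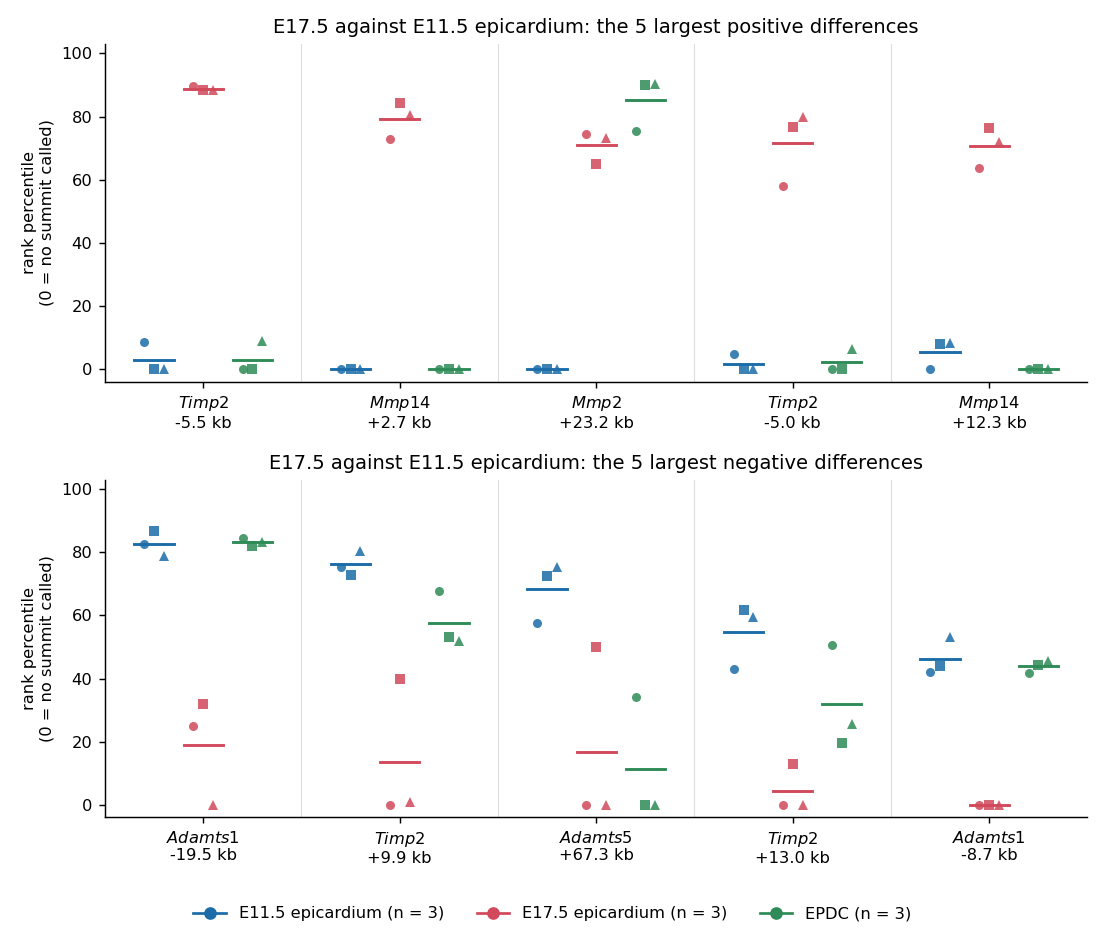
Rank percentile (0 means no summit called) of the 5 regions with the largest higher (top) and lower (bottom) difference at E17.5 among those called and not overlapping between stages, labelled by gene and distance from its start. Points are libraries, lines are group means. The upper *Timp2* and *Mmp14* regions are near 0 in both E11.5 epicardium and EPDC, and the *Mmp2* region is high in E17.5 epicardium and EPDC.

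Regions that fell were found around the ADAMTS genes and inside *Timp2*. A region 19.5 kb upstream of *Adamts1*, which encodes a versican-cutting protease, stood at 82.7, 86.7 and 78.7 at E11.5 and at 24.8, 32.0 and 0 at E17.5. EPDC, at 84.6, 81.9 and 83.3, was close to E11.5. The fall was -63.8 ± 7.5 points (SE, limma adjusted p = 0.00026). A further region 8.66 kb upstream of *Adamts1* had summits at 41.9 to 53.1 at E11.5 and 41.6 to 45.5 in EPDC and none at E17.5. Past the end of *Adamts5*, a region that stood at 57.6, 72.4 and 75.4 at E11.5 had a summit only in E17.5 replicate 2, at 49.9. That difference of -51.8 ± 15 had an adjusted p of 0.026 in limma, and the call was lost when E11.5 replicate 2, E11.5 replicate 3, E17.5 replicate 1 or E17.5 replicate 3 was left out, with adjusted p of 0.086 to 0.10.

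Inside *Timp2*, regions 9.86 kb and 13.0 kb from the start fell while the upstream windows rose. The first stood at 75.4, 72.9 and 80.3 at E11.5 and at 0, 39.8 and 1.0 at E17.5. The second lies at a start of *Cep295nl* and stood at 43.0, 61.6 and 59.4 against 0, 13.1 and 0. The *Timp2* locus therefore held called regions in both directions.

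Promoters were described separately. A promoter value is the strongest summit within 1 kb of a protein-coding transcript start, and 9 of the 10 genes had one in at least 2 libraries. The exception was *Mmp9*, the other gelatinase gene, which had a single summit at percentile 6.4, in EPDC E12.5 sample 1. That summit lay 8.22 kb inside the gene, near an internal transcript start, and not at the gene start. The strong region nearest to the *Mmp9* gene start lay 1.95 kb upstream and stood at 87.2 to 93.0 in all 9 libraries. The *Timp2* promoter was at 91.1, 92.3 and 94.2 at E11.5 and at 88.6, 94.3 and 91.4 at E17.5, and the groups overlapped.

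At E17.5 the promoters of *Mmp11* and *Timp3* were higher with no overlap between groups, and those of *Mmp2*, *Mmp14*, *Mmp15*, *Mmp16* and *Adamts1* were lower. Over all 15641 promoters tested, 11.0% were higher and 26.0% lower without overlap. *Timp3*, whose product is a matrix-bound inhibitor, stood at 85.3 ± 2.6 at E11.5 and at 91.5 ± 0.86 at E17.5 (SD, n = 3 each, exact permutation p = 0.10). *Mmp15* stood at 76.7 ± 4.1 and at 62.3 ± 6.4 (exact permutation p = 0.10), and 0.10 is the smallest p that 3 against 3 allows. The *Mmp11* promoter is shared with a start of *Chchd10*, so its accessibility cannot be assigned to either gene. *Adamts5* was at 70.8 ± 5.2 and 64.1 ± 5.2, and the groups overlapped.

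**Figure D3:**
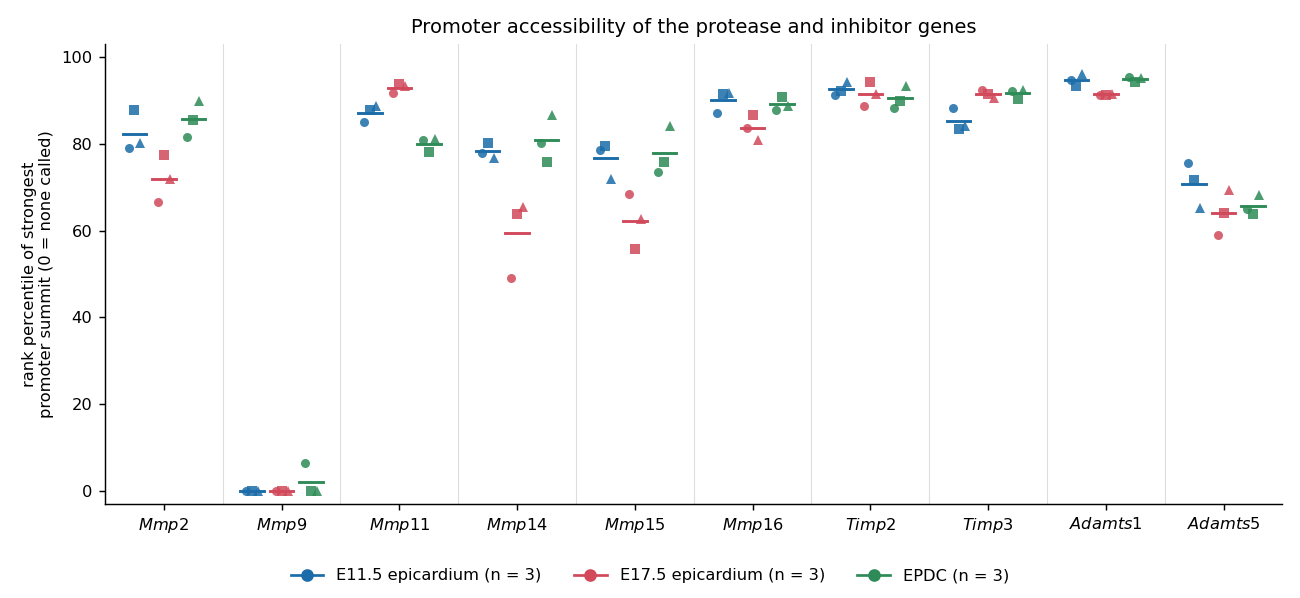
Rank percentile of the strongest promoter summit of each gene (0 means none called), with libraries as points and group means as lines. *Mmp9* is at or near 0 throughout, *Mmp14* and *Mmp15* show the largest drops from E11.5 to E17.5, and *Timp2* differs little.

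The number of called summits inside and within 25 kb of each gene, per 100000 summits of the library, was higher at E17.5 without overlap at *Mmp2*, *Mmp14*, *Timp2*, *Timp3* and *Adamts1*, and lower at *Adamts5*. Over 19262 genes, 28.1% were higher and 14.1% lower on this measure. *Timp2* had 13.4, 10.5 and 10.9 in the E11.5 libraries and 22.1, 20.3 and 21.4 in the E17.5 libraries. *Mmp14* had 10.1, 11.2 and 10.9 against 20.02, 15.6 and 15.8. *Timp3* went from 11.8 ± 1.8 to 18.0 ± 1.4 (SD, n = 3 each, exact permutation p = 0.10). The plain numbers of summits did not overlap between stages at *Mmp14*, *Timp2* and *Timp3*. They did at *Adamts1* (9, 8 and 9 against 9, 13 and 9), at *Mmp2* (8, 9 and 9 against 9, 11 and 10) and at *Adamts5* (9, 14 and 12 against 6, 9 and 8), where the separation arose on division by the size of each list. With equal numbers of top summits, the difference at *Mmp2* was 1.40 in place of 2.62 and at *Adamts1* 1.40 in place of 2.78, *Adamts5* had a difference of 0 in place of -1.75, and *Timp2* one of 8.08 in place of 9.69.

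**Figure D4:**
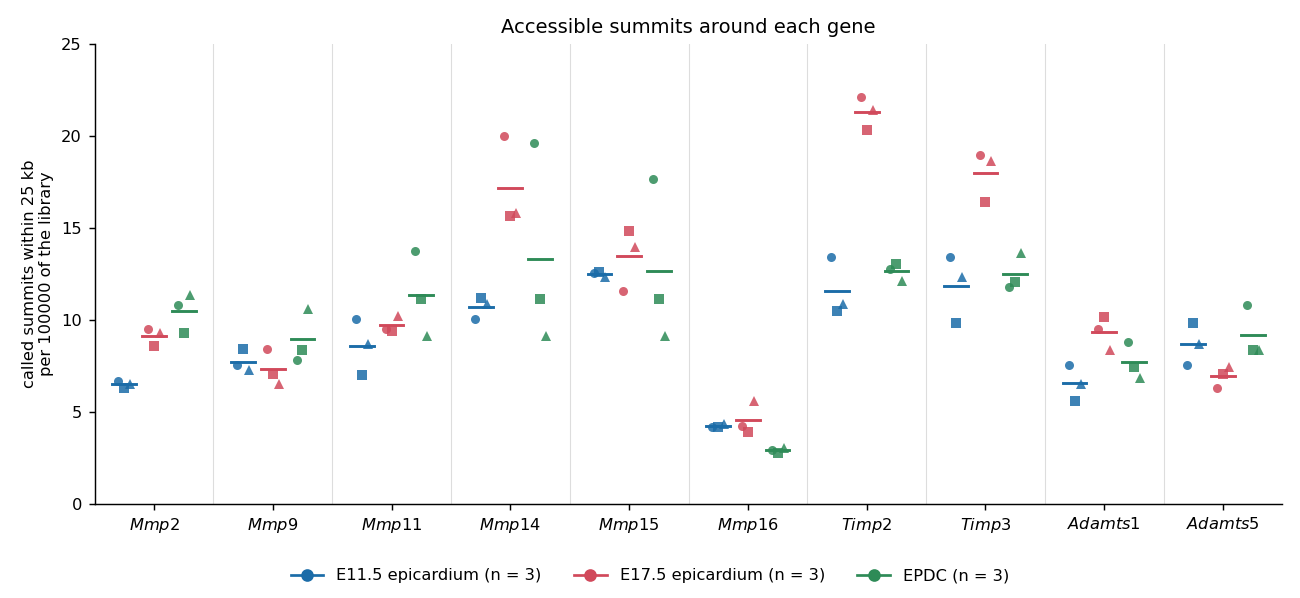
Called summits inside and within 25 kb of each gene per 100000 summits of the library, with libraries as points and group means as lines. *Timp2*, *Timp3* and *Mmp14* lie higher in the 3 E17.5 libraries than in the 3 E11.5 libraries.

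In EPDC, the regions around these genes were called at about the rate of all regions. Against the 6 epicardial libraries, 22 of the 137 were higher, 33 were lower and 82 did not pass, or 16.1% and 24.1%, with 19.1% and 23.1% over all regions. Ranked by fold enrichment, 28 were higher and 24 lower, and 53.8% of the called regions were then higher, while over all regions that share was 45.3% by -log10 p and 47.4% by fold enrichment. Regions with a summit in all EPDC libraries and no epicardial library numbered 3 (1.95% against 3.23% over all regions), and those in all epicardial libraries and no EPDC library also numbered 3 (1.95% against 2.12%). *Adamts1* and *Adamts5* had 3 higher and 0 lower regions each, whereas *Timp2* had 3 higher and 9 lower, *Timp3* 2 and 9, and *Mmp14* 2 and 6. The epicardial side of this comparison holds both stages. The EPDC and epicardial values did not overlap at 0 of the 3 called regions of *Adamts1*, 2 of 3 of *Adamts5*, 8 of 12 of *Timp2*, 7 of 11 of *Timp3* and 2 of 8 of *Mmp14*. These counts take both directions together. The matching share over all called regions was not computed, so they are not read as particular to these genes. Against E11.5 epicardium alone, 32 of the 55 called regions were called again, and the difference had the opposite sign at 3, which were the *Timp2* windows 5.51 kb and 5.01 kb upstream and the *Adamts1* region 8.66 kb upstream.

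Of the 22 regions higher in EPDC, 18 lay away from the promoters of these genes and 4 at them. Of all 137 regions tested, 21 lay at these promoters. A region 19.5 kb past the end of *Timp3*, within an intron of *Syn3*, had no summit in any of the 6 epicardial libraries and stood at 45.2, 53.0 and 64.1 in EPDC (mean difference 54.1). It too passed the filter only through the group in which it was high, and its test is not given. The *Mmp2* intronic region that rose at E17.5 was also above the epicardial mean, by 49.8 ± 4.9 (limma adjusted p = 0.00012), though the E17.5 libraries were nearly as high. A region 1.08 kb upstream of *Mmp2* had no summit at E11.5, stood at 0, 8.3 and 20.3 at E17.5 and at 34.4, 56.8 and 64.4 in EPDC. A region 20.7 kb past *Mmp15* stood at 55.2, 59.9 and 59.5 in EPDC and at no more than 23.0 in epicardium. A region 16.3 kb upstream of *Timp2* stood at 36.03, 57.6 and 69.7 against at most 20.1.

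Among the regions that fell in EPDC, one 16.0 kb past the end of *Mmp2*, in an intron of *Lpcat2*, went from 58.4 to 82.6 in epicardium to 14.0, 0 and 11.4 (-59.9 ± 6.3, SE, limma adjusted p = 0.00016). An intronic *Timp3* region 17.4 kb from the start, also inside *Syn3*, stood at 46.1 to 65.9 in all 6 epicardial libraries and had no summit in EPDC. A region in *Usp36*, 20.4 kb past *Timp2*, had no summit in EPDC and rose with stage in epicardium, from 33.2, 45.9 and 15.2 to 65.6, 82.3 and 77.3. In *Mmp15*, an intronic region 6.66 kb from the start was at 47.7 to 57.9 at E11.5, 79.5 to 87.2 at E17.5 and 29.5, 19.6 and 0 in EPDC. A region 16.1 kb upstream of *Mmp9* had no summit in EPDC E12.5 sample 1 or E13.5 sample 1 and stood at 75.7 in E13.5 sample 2, just under the lowest epicardial value of 75.8. Its call (limma adjusted p = 0.015) was lost without either of the first 2 of these libraries, at adjusted p of 0.069 and 0.076.

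**Figure D5:**
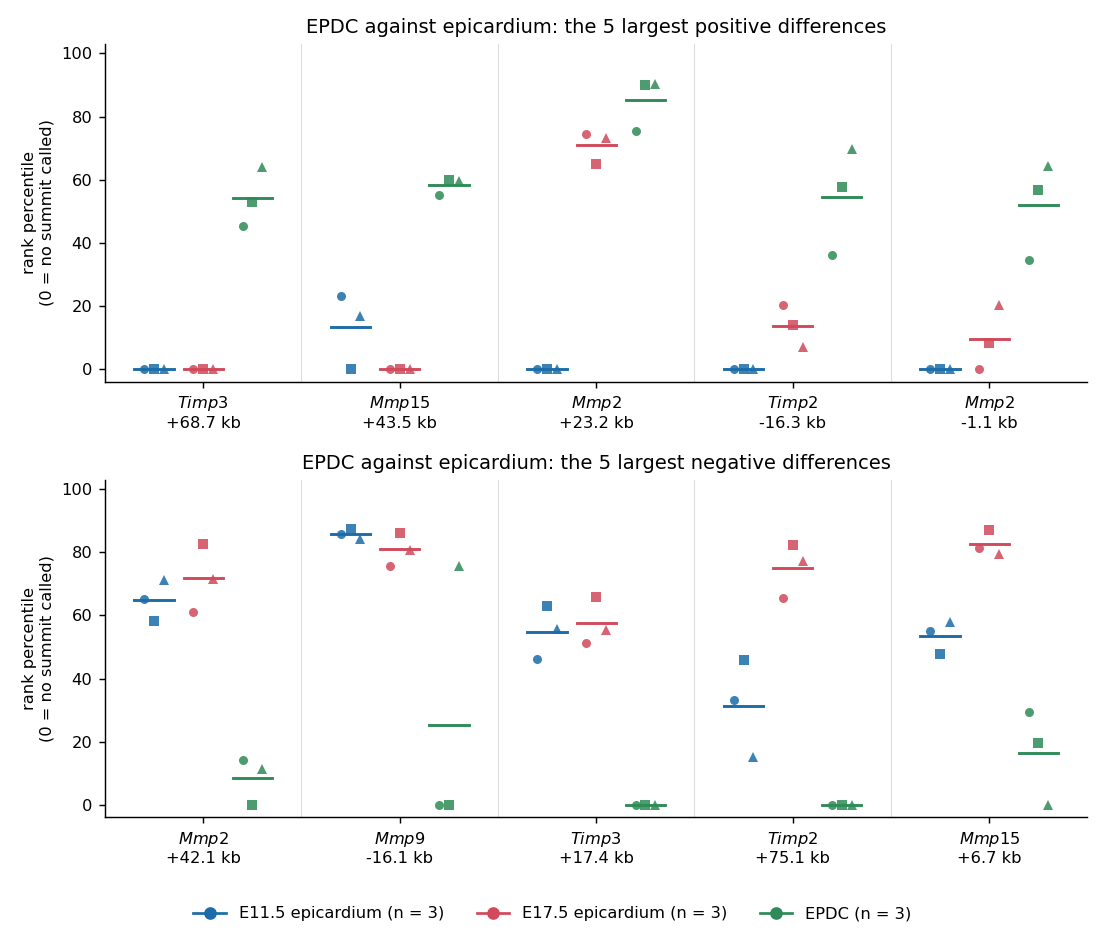
Rank percentile (0 means no summit called) of the 5 regions with the largest higher (top) and lower (bottom) difference in EPDC against epicardium among those called and not overlapping, labelled by gene and distance from its start. Points are libraries and lines are group means. The *Timp3* region past the gene is at 0 in all epicardial libraries, and for *Mmp9* the EPDC libraries are spread from 0 to 75.7.

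The 4 promoter regions called higher in EPDC overlapped the epicardial values. The *Mmp14* promoter region stood at 80.2, 75.9 and 86.7 in EPDC, near its E11.5 values, and was above the epicardial mean by 12.04 ± 4.0 (SE, limma adjusted p = 0.038). A weaker region 0.68 kb upstream of *Mmp14* stood at 11.7, 47.4 and 58.0 in EPDC and at no more than 14.1 in epicardium. The *Mmp15* promoter region had 73.5, 75.8 and 82.3 in EPDC, with 72.0 to 78.6 at E11.5 and 46.4 to 55.7 at E17.5, and the *Mmp2* promoter region had 81.6, 85.5 and 89.8 in EPDC, with 79.0 to 87.7 and 66.6 to 77.3 at these stages.

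By the strongest promoter summit of each gene, the EPDC difference reached the smallest p of the exact permutation test at *Mmp11* alone of these genes. It stood at 80.8, 78.1 and 81.2 in EPDC and at 85.0 to 93.8 in epicardium (-10.0, exact permutation p = 0.012, 3 against 6). Over all promoters, 6.75% were higher and 9.94% lower in EPDC without overlap. The summits around *Mmp16*, a membrane enzyme gene, were fewer in EPDC, with 2.94, 2.79 and 3.03 per 100000 against 3.91 to 5.59 (exact permutation p = 0.012). The plain numbers, 3, 3 and 4 in EPDC against 4 to 6, met at 4, so the separation arose on division by the size of each list. Over all genes, 6.06% were higher and 8.39% lower on that measure.

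The setting of the regions was counted next. Of the 137, 40 lay at a promoter of some gene, or 29.2% against 15.6% of all regions, but taking regions in and around genes brings in each gene's own promoters, which made up 21 of the 40. The promoter share is therefore set by the choice of regions, and the 39.4% against 29.6% with a summit in all 9 libraries is a description. Another gene's start lay within 1 kb of 21 of the regions including the strongest region near *Timp2*, at a start of *Usp36* with percentiles of 99.0 to 99.8, and the strongest near *Mmp15*, at *Usb1* and *Zfp319*, and 48 lay inside another gene. The median GC content of the 97 regions outside promoters was 51.5%, and that of all regions outside promoters was 47.7%. Searched over whole 501 bp windows outside promoters, the AP-1 motif was in 22.7% of these regions and in 25.03% of all regions, TEAD in 30.9% and 35.5%, GATA in 27.8% and 32.8%, SP/KLF in 14.4% and 13.8%, T-box in 24.7% and 21.2%, RUNX in 32.0% and 31.3%, C/EBP in 16.5% and 20.5%, NFI in 33.0% and 30.2%, and the CTCF core in 3.09% and 4.68%. Of the 23 regions higher at E17.5, 9 held AP-1 and 10 the NFI motif, against 37.4% and 40.3% of all regions higher at E17.5.

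The other genes of the pathway were described from a list in the same way, and their counts stand beside shares of 11.0% higher and 26.0% lower at E17.5 over all promoters. Of 16 other matrix metalloproteinase genes, 7 had no promoter summit in any library, among them *Mmp3*, *Mmp7*, *Mmp12* and *Mmp13*, and of the 8 tested 1 was higher and 2 were lower at E17.5 without overlap. The membrane enzyme gene *Mmp25* was one of those lower, at 78.0, 87.9 and 83.3 against 71.1, 50.5 and 58.0. All 3 other inhibitor promoters were lower at E17.5, *Timp4* by -41.4 points, *Timp1* by -6.46 and *Reck* by only -1.60. Of 17 other ADAMTS promoters 2 were higher and 6 lower, and *Adamts18* stood at 86.0, 90.3 and 91.7 against 43.7, 44.4 and 41.6. Of 7 tested promoters for activators and the plasmin system, 0 were higher or lower. Among 6 proteoglycan promoters, 3 were lower, including *Vcan*, the versican substrate, at 91.1, 91.8 and 91.1 against 80.4, 86.3 and 82.0. In EPDC, 0 of the tested promoters on these 5 lists were lower without overlap, against 9.94% of all promoters, and 6.75% of all promoters were higher. Those higher were 2 of 8 other matrix metalloproteinase promoters (*Mmp8* and *Mmp23*), 2 of 17 other ADAMTS promoters, 1 of 7 for activators and the plasmin system (*Bsg*), 1 of 6 proteoglycan promoters (*Hspg2*) and 0 of 3 other inhibitor promoters. *Mmp23* stood at 85.4, 84.02 and 87.4 in EPDC and at 42.6 to 76.0 in epicardium.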

How the data were processed

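The deposited lists were narrowPeak files. Per the labels and the study's methods, the authors aligned reads to mm10, removed mitochondrial, blacklisted, duplicate and multimapped reads, and called peaks and summits with MACS2 2.2.9.1 in each library, with 1 list for the technical replicates of EPDC E13.5 sample 2. The deposited columns used were fold enrichment (a ratio), -log10 p and -log10 q (the authors' MACS2 scores). The q of every summit was at least 2.00 on that scale. Reads were not analysed here.

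Summits on chromosomes 1 to 19, X and Y were widened by 250 bp on each side and reduced to windows that do not overlap, keeping the higher depth-normalized score. A window's value in a library was the rank percentile, by -log10 p, of the strongest summit within 250 bp of its center, or 0. Windows called in at least 2 libraries were fitted with limma 3.58.1 (R 4.3.3, trend) over all 9 libraries, with Benjamini-Hochberg adjustment over 154147 windows and a threshold of 0.05. Single promoter and locus values were compared by two-sided exact permutation tests (20 assignments for 3 against 3, 84 for 3 against 6, smallest p 0.10 and 0.012). Fragments at a summit were solved from fold enrichment and -log10 p, and for 98.2% to 100.0% of summits a whole number of fragments gave the deposited -log10 p within 0.001. Genes came from GENCODE and sequences from GRCm38.p6. Both steps were tested on simulated data. The fit held its error rate but called few of the changed windows when few had changed, and it exceeded that rate when many did. The shares called here (9.17% and 25.1% between stages, 19.1% and 23.1% in EPDC) are of that second kind, so more than the nominal share of calls may be false.

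The members and lists were chosen with earlier results of these data known. Named regions were, for each gene, the strongest promoter and other region, and in each comparison the 5 with the largest difference in each direction among those called and not overlapping. Each epicardial library pooled separate hearts. Replicate numbers did not pair the stages. Alternatives were other rankings, filters, distances and scales, and each library left out.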

Additional observations from a re-analysis of the deposited data

Results flagged for a closer look

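The EPDC lists held summits outside chromosomes 1 to 19, X and Y that entered no comparison: 268 in EPDC E12.5 sample 1, 263 in EPDC E13.5 sample 1 and 252 in EPDC E13.5 sample 2. The 6 epicardial lists held 0. None of these summits lies near the 10 genes. Every group holds 3 libraries, so no library was tested as an outlier within its group.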

How the results depend on the processing

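Most counts moved by less than 1.5 times under the alternatives. Regions higher at E17.5 numbered 23, and 39 with scores scaled to the library total. Regions lower at E17.5 numbered 26, and 16 with equal numbers of top summits. Regions higher in EPDC numbered 22, with 12 by groups that do not overlap and 14 within 10 kb of a gene. Regions lower in EPDC numbered 33, and 20 by groups that do not overlap. The cause of these shifts was not tested, apart from the smaller distance, which leaves fewer regions. Leaving out each library gave 19 to 26 higher and 15 to 29 lower at E17.5, and 18 to 24 higher and 26 to 41 lower in EPDC. The lower count at E17.5 fell to 15 without E11.5 replicate 3 and to 16 without E17.5 replicate 1. Same-numbered libraries of the 2 stages did not deviate together (r = 0.014, 0.040 and -0.031 over 154147 regions), so the numbers do not pair them. With the replicate number as a block, 28 regions were higher and 28 lower. Of the 49 regions called between stages, 36 to 47 were called again with a library left out, and of the 55 called in EPDC, 44 to 51. Against E11.5 alone 32 of the 55 were called again and 3 had the opposite sign, and ranked by fold enrichment 43 were, also with 3 opposite, with 39 of the 49 and 1 opposite between stages. By overlap of intervals, 2 of the 49 and 3 of the 55 had the opposite sign. Of the alternatives for named regions (other rankings, interval overlap and libraries left out), 234 of 240 kept the call and 6 lost it, and none changed sign. Promoter differences moved by more than the replicate spread in 14 of 240 alternatives, and locus differences in 11 of 210. A region with few fragments in a library may have no called summit there, and detection limits were not compared between libraries.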
